A study of Homo sapiens with 12 samples.

Results

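The 10 ligands that tumour cells can show to the receptors of natural killer (NK) and T cells were followed in the JJN3 line of human multiple myeloma, a cancer of plasma cells, by RNA sequencing. They were listed by name, with earlier results of these data known, and no measured value entered the rule: MICA, MICB, ULBP1, ULBP2 and ULBP3, PVR and NECTIN2, CD274, CD80 and CD86. All 10 were found among the 59276 gene symbols of the table. The series held 12 libraries in 4 groups of 3. DMSO and MS023 libraries came from wild-type JJN3 cells given the solvent or 10 µM MS023, an inhibitor of the type I protein arginine methyltransferases, for 3 days. The isgCtrl and PRMT1-KO libraries came from JJN3 cells that carried Cas9 with mCherry and a guide RNA that doxycycline switches on. Both were sorted, puromycin-selected and induced for 3 days, with a control guide in isgCtrl and the guide iPRMT1_1 against PRMT1 in PRMT1-KO. Each knockout was thus a selected pool made with 1 guide, and the isgCtrl cells shared every step with it except the guide. PRMT1 places most of the asymmetric dimethyl marks on arginine in cells. No source says that the 3 libraries of a group came from separate cultures, so p-values measure only the spread between these libraries.

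The ligands work in 3 systems. MICA, MICB and the ULBP proteins are stress-induced relatives of class I histocompatibility molecules, and all bind NKG2D (gene KLRK1), an activating receptor of NK cells and CD8+ T cells. PVR and NECTIN2 bind CD226, which activates, and TIGIT, which restrains, the same lymphocytes. CD80 and CD86 give T cells their second signal through CD28 or restrain them through CTLA4, and CD274, better known as PD-L1, restrains T cells through PD-1 (gene PDCD1). Myeloma cells are known to carry several of these ligands, and some of them are cut from the cell surface, so the mRNA levels described here are not surface levels.

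The genes lie in small clusters on GRCh38 in GENCODE v44. This is the same genome build as the one the authors used, with a later annotation release. All 10 are annotated as protein-coding. MICA spans 31399784 to 31415315 and MICB 31494881 to 31511124 on the plus strand of chromosome 6, with 79.6 kb between them in the class I region. ULBP2 and ULBP1 lie on the plus strand of the long arm of chromosome 6, beginning at 149942014 and 149963943. ULBP3 lies near them on the minus strand, from 150061053 to 150069121. PVR, from 44643798 to 44666162, and NECTIN2, from 44846175 to 44889223, lie 180.0 kb apart on chromosome 19. CD274 spans 5450503 to 5470566 on chromosome 9. CD80, from 119524293 to 119559614 on the minus strand, and CD86, from 122055362 to 122121139 on the plus strand, lie 2495.7 kb apart on chromosome 3.

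MICA and MICB are near copies of each other, and a stretch before their RefSeq starts shows how close they are. The aligned 96 bases at chr6:31403349-31403444 (MICA) and chr6:31497895-31497990 (MICB), plus strand, GRCh38.p14 from RefSeq, were identical at 84 positions, or 87.5%. Capitals mark the 12 positions that differ:
MICA: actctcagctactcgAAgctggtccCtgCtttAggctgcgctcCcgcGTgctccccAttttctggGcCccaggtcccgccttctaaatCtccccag
MICB: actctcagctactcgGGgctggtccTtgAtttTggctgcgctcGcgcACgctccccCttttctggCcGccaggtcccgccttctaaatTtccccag
Closer to the RefSeq start both genes hold a match to GAANNTTC, the core of a heat shock element, which reads the same on both strands. It ends 128 bases before the start of MICA and 132 bases before that of MICB. In MICA it lies past the beginning of a GENCODE v44 exon, at which the aligned stretch stops. The 28 bases around it, at chr6:31403450-31403477 and chr6:31497996-31498023, are shown because heat shock is a textbook inducer of both genes, with the match in capitals:
MICA: cagcccactgGAATTTTCtcttccaagc
MICB: caggccgctaGAATTTTCtcttctgaac
Of the 35114 promoter windows of 250 bases in the RefSeq table, 5.8% held this match, and no window of the other 8 ligands did.

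The windows before CD274 and CD80 looked different. In the CD274 window, chr9:5450292-5450502 on the plus strand, capitals mark matches on either strand to an interferon regulatory factor site (2 GAAA units with 2 bases between), to TTCNNNGAA, a gamma interferon activation site, and to GGGCGG, a GC box. The 2 interferon regulatory factor matches overlap each other. In the CD80 window, chr3:119559615-119559864 read from the minus strand, none of the 9 motifs searched was found, which says only that these letters are not in these bases:
CD274: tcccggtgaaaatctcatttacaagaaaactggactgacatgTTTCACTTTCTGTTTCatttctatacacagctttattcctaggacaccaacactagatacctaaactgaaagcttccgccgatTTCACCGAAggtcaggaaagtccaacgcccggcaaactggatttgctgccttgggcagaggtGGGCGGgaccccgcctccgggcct
CD80: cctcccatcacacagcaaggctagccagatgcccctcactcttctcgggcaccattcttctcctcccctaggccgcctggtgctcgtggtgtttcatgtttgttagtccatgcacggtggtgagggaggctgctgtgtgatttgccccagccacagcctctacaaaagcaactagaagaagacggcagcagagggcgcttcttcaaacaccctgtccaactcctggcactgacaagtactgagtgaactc
The interferon regulatory factor match occurred in 3.0% of all windows, the gamma interferon activation site in 6.6% and the GC box in 42.6%. A CCAAT box (CCAAT) was found 2 times in the MICA window and 1 time each in those of MICB and ULBP2, against 32.0% of all windows. The CCAAT matches of MICA lie past the beginning of a GENCODE v44 exon. Also searched on both strands and found in no window of a ligand were the TATA box (TATAAA, in 10.7% of all windows), the cyclic AMP response element (TGACGTCA, in 1.6%), the AP-1 site (TGACTCA, in 4.2%) and the E2F site (TTTCGCGC, in 0.4%). All 10 ligands had an entry in the table, CD86 with 2.

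Levels were compared as TPM (a transcript's share of a library, corrected for its length and scaled to the same sum in every library), and tests were run on the log2(TPM+1) values the authors deposited. Across genes, MICB was the ligand with the highest mean over the 12 libraries, 4.13 on the log2 scale, above 82.7% of the 30616 genes detected in any library. PVR followed at 3.53, then MICA at 2.14, CD86 at 2.01 and NECTIN2 at 1.58. CD274 at 0.51 and CD80 at 0.47 were low, ULBP3 and ULBP1 averaged 0.14 and 0.017, and ULBP2 was listed at 0 in all 12 libraries. JJN3 cells thus held measurable mRNA of the MIC pair and of PVR, and little or none of the ULBP family.

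**Figure D1:**
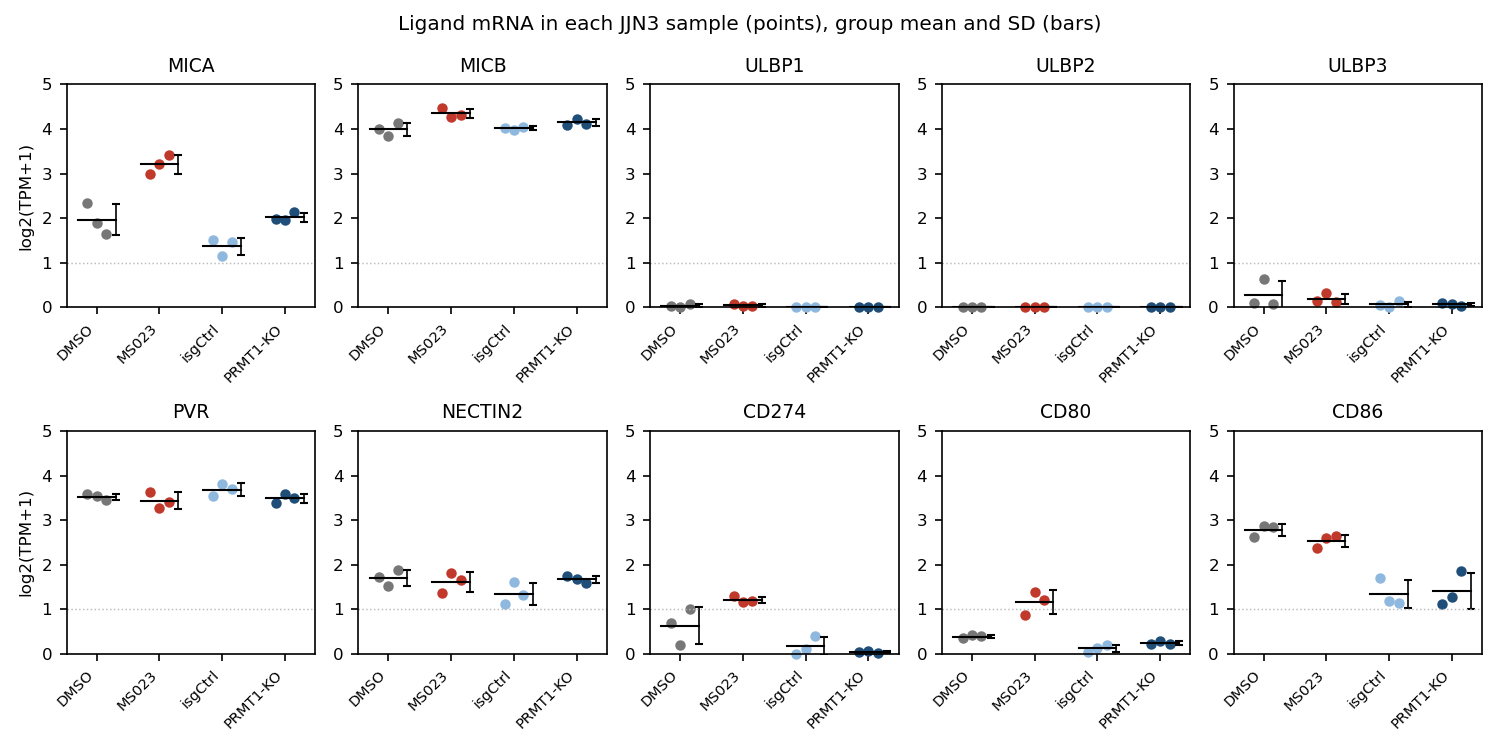
Level of each ligand as log2(TPM+1), with 1 point per library, a horizontal bar for the group mean and an error bar for the SD (n = 3), and a dotted line at the level of 1 that a group mean had to pass for a gene to be tested. MICA and CD80 stood above every other group in the 3 MS023 libraries, CD86 was lower in the isgCtrl and PRMT1-KO libraries than in both wild-type groups, and the ULBP genes lay near 0.

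The label of the knockout was checked on PRMT1 mRNA. It was 302, 309 and 301 TPM in PRMT1-KO against 867, 863 and 849 TPM in isgCtrl, a log2 difference of -1.50 (SE 0.04, limma adjusted p = 0.00072). A guide cuts the gene and need not remove its mRNA. With MS023, which blocks the enzyme, PRMT1 mRNA was 673 ± 23.6 TPM (SD, n = 3) against 653 ± 18.3 TPM in DMSO. The plasma cell markers SDC1 (CD138) and TNFRSF17 (BCMA) averaged at least 88.8 and 128 TPM in every group. MZB1, also a plasma cell marker, averaged 105 and 178 TPM in DMSO and MS023 but 2.01 and 1.01 TPM in isgCtrl and PRMT1-KO, and CD38 4.96, 2.24, 1.33 and 0.891 TPM in the same order. The 8 markers summed to 5414 to 5658 TPM in DMSO, 11494 to 11858 TPM in MS023, 2600 to 2664 TPM in isgCtrl and 2806 to 2988 TPM in PRMT1-KO, most of it JCHAIN. With MS023 4 of them rose and CD38 fell, between the controls 1 was higher and 3 were lower in isgCtrl, and none was called in PRMT1-KO. Their part in the ligand values was not tested. Libraries of a group correlated with each other at r = 0.993 to 0.996 across genes, and none stood apart. A gene was called when its adjusted p was under 0.05 and its log2 difference exceeded 0.48 in size, after genes whose mean log2(TPM+1) was 1 or less in every group of the comparison had been set aside.

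The comparison of MS023 with DMSO asks what inhibition of the type I enzymes does to the ligands. In these cells MICA and CD80 mRNA rose with MS023, MICB was higher by an amount under the fold threshold, and PVR, NECTIN2 and CD86 were not called. Of the 10 ligands 7 were tested, and the call of 2 of them compares with 30.9% of all 12903 genes tested, and with 11.6% called higher. MICA and CD80 both being higher was thus found against a background in which many genes were called. CD274 and CD80 passed the filter on low values only through their MS023 level, so they could be tested only because they were high there.

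MICA, a stress ligand of NKG2D, measured 4.04, 2.72 and 2.13 TPM in DMSO and 6.96, 8.22 and 9.64 TPM in MS023. Every treated library was above every control library. The log2 difference was 1.25 (95% interval 0.76 to 1.73, SE 0.20, limma adjusted p = 0.00355), and the mean TPM was 2.79 times that of DMSO. The call held in each of 13 alternative analyses, with differences between 1.09 and 1.49.

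MICB, its neighbour and the more abundant of the pair, measured 15.1, 13.3 and 16.6 TPM in DMSO and 21.0, 18.4 and 18.8 TPM in MS023. The groups did not overlap, as was true of 59.5% of genes tested, but the step was smaller. The log2 difference was 0.35 (95% interval 0.11 to 0.60, limma adjusted p = 0.028), under the 0.48 needed for a call. With quantile normalization it was 0.51 (limma adjusted p = 0.0067) and was called, the only 1 of 13 alternatives that did so. The adjusted p was under 0.05 in 8 of the 13. It rose to 0.085 without MS023 replicate 1 and to 0.0684 without DMSO replicate 2, where the difference was 0.28.

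Because both proteins bind the same receptor, their mRNA was also added up. MICA and MICB together came to 18.0 ± 1.69 TPM (SD, n = 3) in DMSO and 27.7 ± 0.957 TPM in MS023, 16.8 ± 0.796 TPM in isgCtrl and 19.8 ± 0.856 TPM in PRMT1-KO. The part of MICA in that sum was 16.5% ± 4.86 in DMSO, 29.9% ± 4.6 in MS023, 9.47% ± 1.59 in isgCtrl and 15.5% ± 1.60 in PRMT1-KO. MICB therefore remained the larger part in each of the 12 libraries. The 2 genes are hard to tell apart in short reads only in places. Of the distinct 31-base words in the MICA transcripts of GENCODE v44, 5.3% also occurred in MICB transcripts, and of those in MICB 7.5% occurred in MICA. MICA is also known to be highly variable between people, and the alleles of JJN3 were not examined here.

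**Figure D2:**
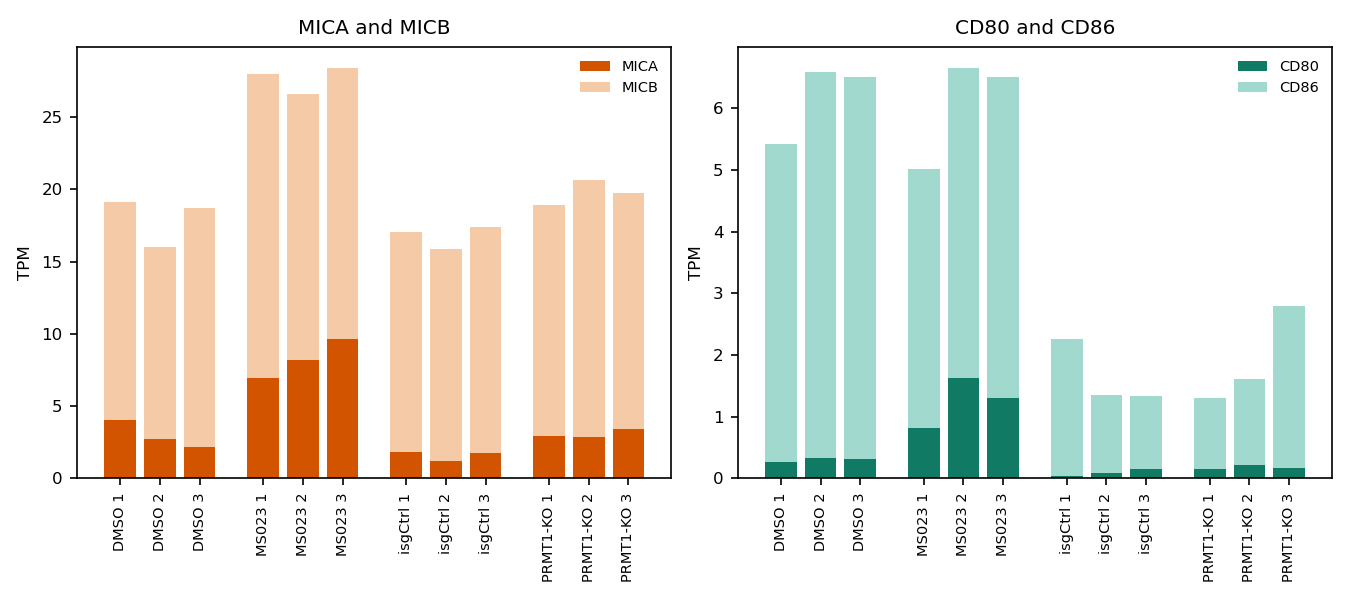
Stacked bars of TPM in each of the 12 libraries, MICA on MICB at left and CD80 on CD86 at right. MICA made up 29.9% of its pair in MS023 on average against 16.5% in DMSO, and the CD80 and CD86 sum averaged 6.18 TPM in DMSO and 6.06 TPM in MS023 against 1.65 TPM in isgCtrl and 1.91 TPM in PRMT1-KO.

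The ULBP genes gave no measurable answer. ULBP1 was at most 0.055 TPM in any library and listed at 0 in all isgCtrl and PRMT1-KO libraries. ULBP3 lay between 0.047 and 0.557 TPM in DMSO, between 0.075 and 0.245 TPM in MS023, and between 0 and 0.091 TPM in the other 6 libraries. None of the 3 passed the filter. ULBP2 shares 44.7% of its 31-base words with other genes, mostly with RAET1L (42.1%), so a value of 0 for it is uncertain, but the 4 further NKG2D ligands of the RAET1 family were low too. RAET1E, RAET1G, RAET1L and RAET1K together came to at most 0.203 TPM in a library.

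PVR, the poliovirus receptor, measured 10.99, 10.6 and 9.96 TPM in DMSO and 11.4, 8.71 and 9.56 TPM in MS023. The groups overlapped, and the log2 difference was -0.09 (95% interval -0.35 to 0.17, limma adjusted p = 0.517). Its group means lay between 9.89 and 11.9 TPM. NECTIN2 measured 2.28, 1.87 and 2.69 TPM in DMSO and 1.56, 2.49 and 2.13 TPM in MS023, again overlapping, with a log2 difference of -0.10 (95% interval -0.46 to 0.26, limma adjusted p = 0.59). On the log2(TPM+1) scale these intervals bound a difference of either gene to less than 0.48 in size. The bound is for that scale only. With 0.1 in place of 1 added to TPM the NECTIN2 difference was -0.15, for which no interval is given.

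CD274 measured 0.606, 0.146 and 1.01 TPM in DMSO and 1.44, 1.22 and 1.25 TPM in MS023. The MS023 libraries were all above the DMSO libraries, which were scattered. The log2 difference of 0.58 (95% interval 0.08 to 1.07) had a limma adjusted p of 0.0565 and was not called. Without DMSO replicate 3, the highest control, it was 0.76 and called (limma adjusted p = 0.0178). It was also called with median-ratio scaling (0.62, limma adjusted p = 0.04) and with all 12 libraries in 1 fit (limma adjusted p = 0.0168). The other 10 of 13 alternatives left it uncalled, with limma adjusted p up to 0.139. Without DMSO replicate 2, the lowest control, the CD274 difference fell to 0.36 (limma adjusted p = 0.0663). No 31-base word of CD274 or CD86 occurs in another gene.

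CD80, the rarer of the pair that binds CD28, measured 0.268, 0.332 and 0.306 TPM in DMSO and 0.814, 1.62 and 1.31 TPM in MS023. The treated libraries were higher than all 9 others. The log2 difference was 0.77 (95% interval 0.43 to 1.11, SE 0.14, limma adjusted p = 0.0056), with a mean TPM 4.13 times that of DMSO. On a scale with 0.1 in place of 1 added to TPM it was 1.70, since the added 1 compresses changes of genes this low. CD80 ends across the gene TIMMDC1, which is read from the opposite strand, and 23.9% of the 31-base words of CD80 occur in TIMMDC1 transcripts on that strand. TIMMDC1, named here for that overlap, was far more abundant and went the other way, at 103 ± 3.73 TPM (SD, n = 3) in DMSO and 67.0 ± 3.35 TPM in MS023, a log2 difference of -0.61 (limma adjusted p = 0.000984). No source used here says whether the strand of reads was used.

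CD86 measured 5.16, 6.26 and 6.20 TPM in DMSO and 4.20, 5.04 and 5.201 TPM in MS023. The groups overlapped slightly, and the log2 difference was -0.24 (95% interval -0.50 to 0.01, limma adjusted p = 0.104). CD80 and CD86 together came to 6.18 ± 0.651 TPM (SD, n = 3) in DMSO and 6.06 ± 0.912 TPM in MS023, while the part of CD80 was 4.89% ± 0.173 and 20.2% ± 4.05. CD86 thus made up most of the pair in both.

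CD80 and CD86 are also products of antigen-presenting cells, so markers of other cells were read beside them. Of the 9 monocyte and dendritic cell markers only CD68, a lysosomal protein also found outside macrophages, passed the filter, and it rose with MS023 (log2 difference 1.57, limma adjusted p = 0.00245). The sum of the list was 0.999 to 2.24 TPM in DMSO, 5.14 to 11.2 TPM in MS023, 0.439 to 3.46 TPM in isgCtrl and 0.434 to 0.534 TPM in PRMT1-KO. LYZ averaged 0.10 TPM in both wild-type groups. CD14 was 0.184, 0.577 and 0.075 TPM in DMSO and 0.024, 0 and 2.08 TPM in MS023, and CSF1R reached 0.814 TPM in that same MS023 replicate 3 and at most 0.087 TPM elsewhere. ITGAX was 0.061 to 0.140 TPM in DMSO and 0.475 to 0.631 TPM in MS023, under the level tested. CD80 in MS023 replicates 1, 2 and 3 was 0.814, 1.62 and 1.31 TPM, and a link with these markers was not tested. Of the T cell markers 1 of 9 passed, CD247, at 50.5 to 63.0 TPM on average in every group and not called in any comparison. The defining markers were low, with CD3D at or under 0.07 TPM and CD3E at or under 0.39 TPM on average in each group, and the NK cell list summed to 3.80 to 8.40 TPM over all libraries. On that list GZMB, tested only because of its MS023 level, rose (1.58, limma adjusted p = 0.000627) and KLRF1 fell (-0.73, adjusted p = 0.012) with MS023, and NCR1, tested only because of its isgCtrl level, fell in PRMT1-KO (-0.94, adjusted p = 0.0484), all at under 4 TPM. The 6 fibroblast markers summed to 1.28 to 3.43 TPM in DMSO, 4.86 to 5.06 TPM in MS023, 1.60 to 14.8 TPM in isgCtrl and 1.26 to 2.44 TPM in PRMT1-KO. COL1A1, tested only because of its MS023 level, rose with MS023 (0.68, adjusted p = 0.0121). The part of any such marker in the ligand values was not tested. In bulk libraries fewer cells that express a gene and less of its RNA in each cell cannot be told apart.

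**Figure D3:**
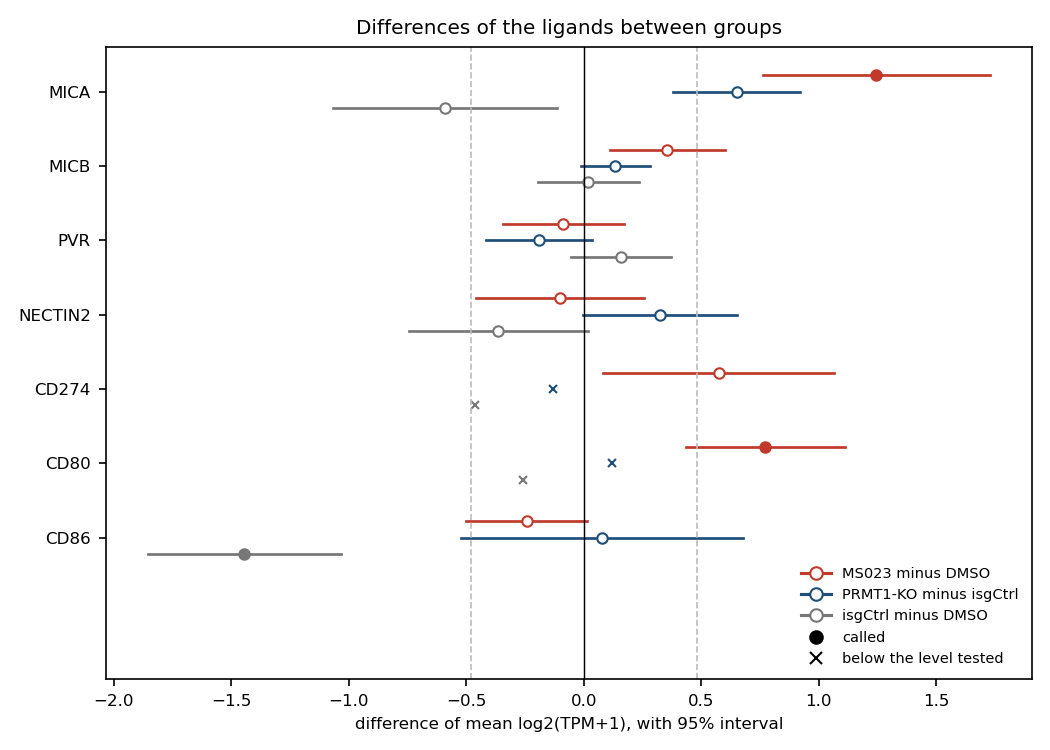
Difference of the group means of log2(TPM+1) for the 7 ligands tested in any comparison, with 95% intervals from limma. Filled points are called, crosses are values below the level tested, and dashed lines mark 0.48 on either side. MICA and CD80 are called with MS023, no ligand is called in PRMT1-KO, and CD86 is called between the 2 control groups.

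The comparison of PRMT1-KO with isgCtrl asks the same of the loss of PRMT1 alone. No ligand was called, 5 were tested, and 1, MICA, had an unadjusted p under 0.05. Few genes were called in this comparison at all, 0.781% of 12285, and leaving out any 1 of its 6 libraries left between 2 and 21 genes called in place of 96. The count of 0 therefore sits against a low background.

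MICA measured 1.82, 1.22 and 1.74 TPM in isgCtrl and 2.92, 2.87 and 3.38 TPM in PRMT1-KO. The groups did not overlap, as was true of 26.7% of genes tested here. The log2 difference was 0.65 (95% interval 0.38 to 0.92, SE 0.11, limma adjusted p = 0.0637). In none of 13 alternatives did the adjusted p fall under the threshold, and it ranged from 0.0519 to 0.173.

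MICB measured 15.2, 14.6 and 15.6 TPM in isgCtrl and 16.0, 17.8 and 16.4 TPM in PRMT1-KO, a log2 difference of 0.13 (95% interval -0.01 to 0.28, limma adjusted p = 0.297). NECTIN2 measured 1.15, 2.05 and 1.48 TPM in isgCtrl and 2.35, 2.19 and 1.99 TPM in PRMT1-KO, with a log2 difference of 0.33 (95% interval -0.00 to 0.65, limma adjusted p = 0.27). PVR measured 10.6, 13.1 and 11.97 TPM in isgCtrl and 9.49, 11.04 and 10.3 TPM in PRMT1-KO, with a log2 difference of -0.19 (95% interval -0.42 to 0.04, limma adjusted p = 0.328). Of these only the MICB libraries were separate between the groups.

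CD86 measured 2.23, 1.26 and 1.19 TPM in isgCtrl and 1.15, 1.39 and 2.63 TPM in PRMT1-KO. Its log2 difference of 0.08 had a wide interval of -0.52 to 0.68 (limma adjusted p = 0.896). CD80 was 0.030, 0.087 and 0.148 TPM in isgCtrl and 0.153, 0.221 and 0.168 TPM in PRMT1-KO, and CD274 was 0, 0.071 and 0.315 TPM and 0.030, 0.033 and 0.008 TPM. Both were below the level tested. The exact two-sided permutation test gave p = 0.1 for CD80, the smallest value that 3 against 3 libraries can give, and p = 0.4 for CD274.

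The effect of MS023 minus that of the knockout was tested in 1 fit of the 12 libraries. CD80 and CD274 were called, of 7 ligands tested, where 24.4% of 13256 genes were called. Both passed the filter here only through their MS023 level, so their being called is not support for a pattern of the ligands. For CD80 the difference of the effects was 0.65 (95% interval 0.30 to 1.01, limma adjusted p = 0.00939), made up of 0.77 with MS023 and 0.12 in PRMT1-KO. For CD274 it was 0.71 (95% interval 0.16 to 1.25, limma adjusted p = 0.0471), made up of 0.58 and -0.13. The CD274 call was narrow. It was lost on leaving out DMSO replicate 1 or 2, any MS023 or PRMT1-KO library, or isgCtrl replicate 2 or 3, with differences from 0.49 to 0.74 and adjusted p from 0.0517 to 0.101. It was also lost without the filter (adjusted p = 0.109), with 0.1 as the added value (0.0997) and with a trended prior (0.0664).

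For MICA the difference of the effects was 0.59 (95% interval 0.05 to 1.14, limma adjusted p = 0.0838), so that a larger effect of MS023 than of the knockout was not called. Without DMSO replicate 1 it was 0.78 and called (limma adjusted p = 0.0155), and it was 0.68 (0.0427) with median-ratio scaling and 0.76 (0.0217) with quantile normalization. The other 15 of 18 alternatives left it uncalled, with limma adjusted p up to 0.203. Without DMSO replicate 3 the MICA difference was 0.44. For MICB it was 0.22 (95% interval -0.04 to 0.48, limma adjusted p = 0.169). The remaining ligands tested, PVR, NECTIN2 and CD86, had adjusted p-values from 0.143 to 0.619.

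The 2 control groups differ in Cas9, the guide vector, selection and doxycycline on one side and DMSO on the other, so their comparison measures how far apart the ligand levels of the inhibitor and the knockout experiment start. It shares the DMSO libraries with the MS023 comparison. CD86 was lower in isgCtrl than in DMSO, with means of 1.56 ± 0.582 and 5.87 ± 0.621 TPM (SD, n = 3). None of the isgCtrl libraries, and none of the PRMT1-KO libraries, reached the lowest wild-type one. Between isgCtrl and DMSO, 51.7% of genes tested did not overlap. The log2 difference was -1.44 (95% interval -1.86 to -1.03, limma adjusted p = 0.00277), and CD86 was the only one of 5 ligands tested that was called, where 13.9% of 12661 genes were.

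MICA was 1.59 ± 0.328 TPM in isgCtrl and 2.96 ± 0.977 TPM in DMSO, a log2 difference of -0.59 (95% interval -1.07 to -0.12, limma adjusted p = 0.0608). Without DMSO replicate 3 it was -0.75 and called (limma adjusted p = 0.0375). That was 1 of 3 alternatives that called it, and 10 of 13 did not. CD80 and CD274, below the level tested here, averaged 0.088 and 0.128 TPM in isgCtrl against 0.302 and 0.586 TPM in DMSO. The level of MICA in PRMT1-KO, 3.06 ± 0.283 TPM, overlapped that of DMSO, the control of the inhibitor experiment.

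The order of the 4 groups differed between ligands. MICA ran from MS023 through PRMT1-KO and DMSO to isgCtrl, and among neighbours only PRMT1-KO and DMSO overlapped. MICB ran from MS023 through PRMT1-KO and isgCtrl to DMSO, and DMSO overlapped both isgCtrl and PRMT1-KO. CD80 ran from MS023 through DMSO and PRMT1-KO to isgCtrl, and no neighbours overlapped. CD274 had the order MS023, DMSO, isgCtrl and PRMT1-KO. MS023 was apart from every other group and DMSO from PRMT1-KO, while isgCtrl overlapped DMSO and PRMT1-KO. CD86 formed a high pair, DMSO and MS023, and a low pair, PRMT1-KO and isgCtrl. For PVR and NECTIN2 every pair of neighbours overlapped. Groups apart were common among all genes tested. The share was 59.5% for MS023 and DMSO, 51.7% for isgCtrl and DMSO and 26.7% for PRMT1-KO and isgCtrl. Shares for the other pairs of groups were not computed, so groups apart there have no background to be set against.

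Some genes followed the 2 ligands called with MS023 over the 12 libraries. For MICA these were TAF12 (Pearson r = 0.969), AC008074.2 (0.968) and OAT (0.966), where TAF12 encodes a subunit of the general transcription factor TFIID and OAT ornithine aminotransferase. For CD80 they were C3AR1, the receptor of the complement fragment C3a (0.979), HSD17B14 (0.977) and PEG10 (0.976). These are descriptions over 12 libraries that fall into 4 groups, and the group differences set them.

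Other ligands of the same receptor families were read from fixed lists. With MS023 3 of 15 further B7 family and B7-like ligands rose and none fell, of 10 tested, where 30.9% of all genes were called and 11.6% were called higher. They were VSIR (VISTA), which restrains T cells (0.87 on the log2 scale, limma adjusted p = 0.0188), TNFRSF14, the ligand of BTLA (0.54, adjusted p = 0.00218), and CD276, also called B7-H3 (0.50, adjusted p = 0.00434). TNFRSF14 belongs to the TNF receptor superfamily rather than the B7 family and was listed for its binding of BTLA. The median log2 difference of the 10 was 0.40, where that of all genes tested was -0.11. PDCD1LG2, the second ligand of PD-1, stayed near 0 at a mean of 0.32 TPM in MS023. Among nectins and nectin-like molecules CADM1, the ligand of the NK and T cell receptor CRTAM, rose by 1.08 (adjusted p = 0.000711) and NECTIN4, tested only because of its MS023 level, by 0.62 (adjusted p = 0.0184), and NECTIN3, which also binds TIGIT, fell by 0.51 (adjusted p = 0.0146).

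Of 19 other ligands of NK cell receptors 17 were tested, 4 rose and 1 fell with MS023, beside the same shares over all genes, and nothing particular to either list is read from these counts. SLAMF7, the self-ligand of myeloma and NK cells that elotuzumab targets, rose by 2.37 (adjusted p = 5.5e-05), from 9.24, 8.71 and 10.0 TPM to 54.7, 48.1 and 53.8 TPM. In isgCtrl and PRMT1-KO SLAMF7 averaged only 0.369 and 0.463 TPM. ICAM2 rose by 0.97, ICAM1, which holds the lymphocyte integrin LFA-1, by 0.87, and HLA-E, the ligand of the NKG2A receptor, by 0.76, with adjusted p-values from 0.000349 to 0.00232. PCNA fell by 0.93 (adjusted p = 0.000144). In PRMT1-KO the only call on this list was CD48, the ligand of the NK receptor 2B4, which rose by 0.49 (adjusted p = 0.0405).

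The receptors of the ligands were read in the tumour cells too. CD28, known on malignant plasma cells, measured 8.81, 7.46 and 7.81 TPM in DMSO and 40.1, 32.8 and 35.5 TPM in MS023, a log2 difference of 2.04 (limma adjusted p = 8.3e-05). CTLA4, tested only because of its MS023 level, rose by 0.83 (adjusted p = 0.00337), from 0.217 ± 0.190 to 1.15 ± 0.188 TPM. In isgCtrl CD28 measured 1.17, 1.16 and 2.17 TPM, and in PRMT1-KO it averaged 3.33 TPM. CD28 and its ligand CD80 were thus both higher in the MS023 group than in DMSO, while CD86 was not called. Among the MS023 libraries CD28 was highest in replicate 1, where CD80 was lowest. KLRK1, the gene of NKG2D, averaged at most 0.43 TPM, CD226 at most 0.22 TPM and PDCD1 at most 0.15 TPM in any group. TIGIT averaged 0.983, 1.41, 0.121 and 0.420 TPM in DMSO, MS023, isgCtrl and PRMT1-KO. CD96, a further receptor of PVR, averaged 26.0 to 33.0 TPM in the 4 groups.

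**Figure D4:**
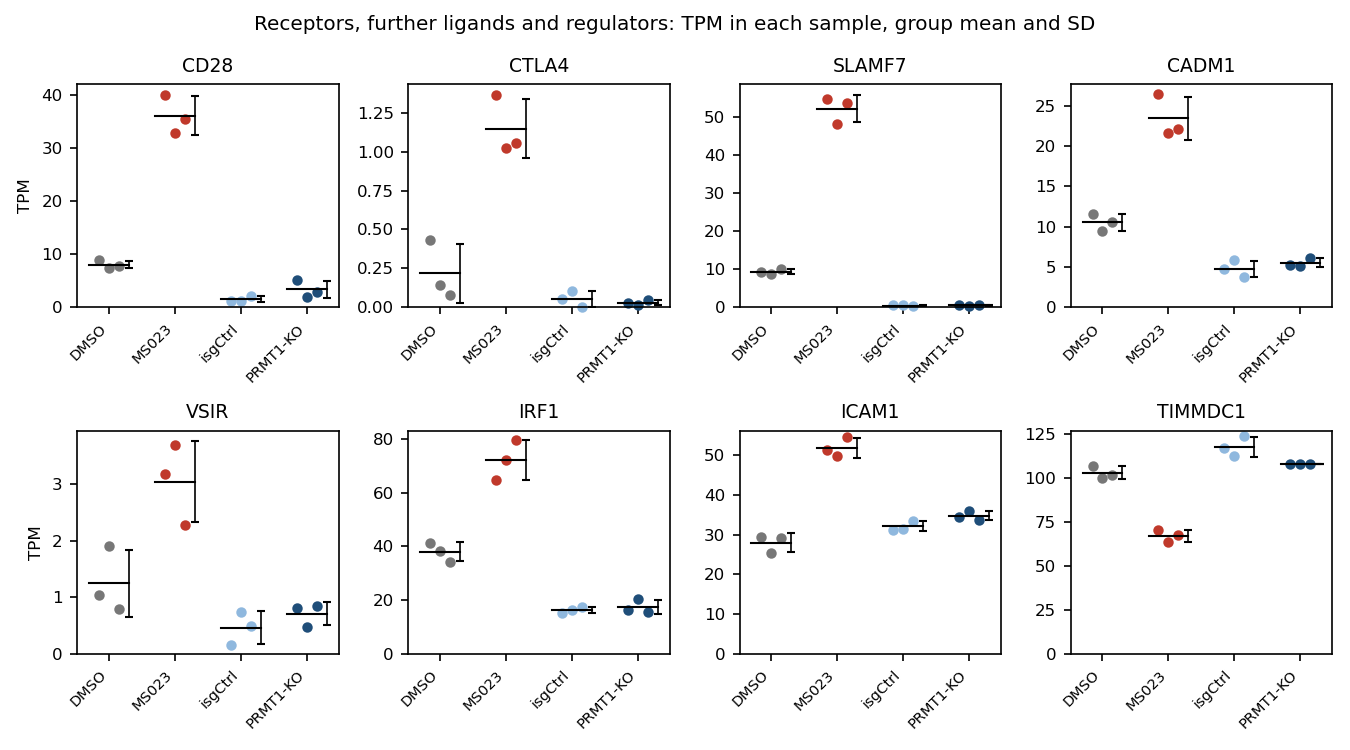
TPM in each library for genes around the ligands, with the group mean and SD (n = 3) and a separate vertical scale in each panel. CD28, CTLA4, SLAMF7, CADM1, VSIR, IRF1 and ICAM1 were highest in the 3 MS023 libraries, and TIMMDC1, the gene that shares bases with CD80, was lowest there.

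Genes known to act on the ligands were taken from fixed lists as well. Of 21 reported regulators of the stress ligand genes, all tested, 4 rose and 8 fell with MS023 and none was called in PRMT1-KO. The largest were E2F2 (-1.35), the checkpoint kinases CHEK1 (-1.14) and CHEK2 (-0.85), the histone methyltransferase EZH2 (-0.94), IKZF3 (0.73) and SP3 (-0.70), with adjusted p-values from 0.000146 to 0.00661. ATM and ATR act in damage signalling, a textbook inducer of NKG2D ligands. Both genes were among those that fell, by 0.64 and 0.67 (named here for that role, after their values were seen). These are mRNA levels, which do not measure signalling, and its part in the ligand values was not tested. Of 17 reported regulators of CD274, CD80 and CD86 2 rose and 2 fell with MS023. IRF1, the factor that carries the interferon signal to the CD274 promoter, rose by 0.91 (adjusted p = 0.0012) and STAT2 by 0.60 (adjusted p = 0.00653). NFKB1 fell by 0.49 (adjusted p = 0.00377). With 12 of 21 and 4 of 17 genes called, the first list had a larger and the second a smaller share of calls than the 30.9% of all genes, which was not tested.

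The last lists bear on the proteins rather than the mRNA. Of 9 genes of ligand shedding (proteases and a chaperone that act in the release of MICA and MICB from the surface, and the protease inhibitors TIMP1 and TIMP3), ADAM9 fell with MS023 by 0.69 (limma adjusted p = 0.000713), and it was the only one of the 6 tested that was called. ADAM10 was at 67.7 and 65.2 TPM and ADAM17 at 14.3 and 14.1 TPM in DMSO and MS023 on average. PDIA6, the disulfide isomerase that prepares MICA for cleavage, was 416 and 535 TPM. These 3 were not called and are named for their role, after their values were seen. None of the 10 genes of CD274 protein stability and uptake was called with MS023, of 9 tested, and none of either list was called in PRMT1-KO.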

How the data were processed

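RNA from 12 JJN3 libraries was sequenced by the authors, who trimmed reads with Trimmomatic, ran STAR and Salmon on human genome build hg38, and took genes from release V35 of GENCODE. The authors deposited log2(TPM+1) values per gene symbol, so the counts behind a value, and hence its counting error, are unknown. TPM was recovered as a power of 2 minus 1. limma 3.58.1 in R 4.3.3 was fitted to the 6 libraries of each comparison, or to all 12 for the difference of effects, without trend, with Benjamini-Hochberg adjustment over all genes tested. Intervals come from that fit. The thresholds (adjusted p 0.05, log2 difference 0.48, group mean above 1) follow the study. The count of genes called with MS023, 3986, was still far larger than the study reports. That in PRMT1-KO, 96, was close to the reported one. The cause of the gap was not tested. Single members below the filter were compared by exact two-sided permutation. The fit was tested on simulated data. Replicate numbers did not pair libraries. Members, lists and motifs were chosen with earlier results of these data known. All ligands are named. Of the lists, genes called with MS023 or in PRMT1-KO are named, at most the 6 largest per list, with genes near 0 where a result turns on them, and the 3 genes most correlated with each called ligand. The aligned MICA and MICB stretches and the CD274 and CD80 stretches shown stop short of any GENCODE v44 exon of the gene. Motif counts and the 28 bases around the heat shock match used all 250 bases before the RefSeq start. Alternatives were an added value of 0.1, no filter, median-ratio scaling, quantile normalization, a trended prior, a replicate block, all 12 libraries in 1 fit, no fold threshold and leaving out each library. 1 listed gene is not reported here.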

Additional observations from a re-analysis of the deposited data

Results flagged for a closer look

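The difference between the effects of MS023 and of the PRMT1 knockout was called for 2 ligands, both of which passed the filter on low values only through their MS023 level. For CD80 the effect of MS023 exceeded that of the knockout by 0.65 on the log2 scale (limma adjusted p = 0.00939), and for CD274 by 0.71 (limma adjusted p = 0.0471). In both genes the 3 MS023 libraries were above the 3 DMSO libraries, and both were under the level tested in isgCtrl and PRMT1-KO. The 2 effects also start from different control levels, 0.302 and 0.088 TPM for CD80 and 0.586 and 0.128 TPM for CD274 in DMSO and isgCtrl. The part of that difference was not tested.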

How the results depend on the processing

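Of 358 ligand values under an alternative, 325 counted as unchanged, 13 lost a call, 10 gained one and 10 changed sign, and none of the last had been called. Unchanged values kept their direction and their side of the threshold. They include ligands below the level tested, whose difference without the filter is the same by construction. Among those, CD80 between controls had a limma adjusted p of 0.0281 without the filter. The sign changed for PVR with MS023 under median-ratio scaling (0.007) and quantile normalization (0.0484), for NECTIN2 with MS023 (leave-one-out range -0.2028 to 0.0203, positive without MS023 replicate 1), for CD86 in PRMT1-KO (leave-one-out range -0.15 to 0.26), and for MICB between controls under median-ratio scaling (-0.0287), quantile normalization (-0.056) and leave-one-out (-0.0582 to 0.0894). The ligands called with MS023 numbered 2 to 3 and in PRMT1-KO 0 under every alternative. Between controls 2 were called with median-ratio scaling and in the 12-library fit, and 1 to 2 on leaving out a library. For the difference of effects 1 was called with 0.1 added, without the filter and with a trended prior, and 1 to 2 on leaving out a library. The causes were not tested.

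Genes called without the fold threshold numbered 6300 with MS023, 157 in PRMT1-KO, 4373 between controls and 4719 for the difference of effects. In PRMT1-KO 48 were called without the filter and 2 to 21 on leaving out a library. The replicate block, with same-numbered libraries correlating at -0.14 to 0.07 in this pair of groups and 0.02 to 0.10 for MS023 and DMSO, called 0 genes in PRMT1-KO (2054 at an unadjusted p under 0.05, lowest adjusted p 0.149) and changed no ligand's call. Of called genes 62.4% were lower with MS023, 46.9% in PRMT1-KO, 48.1% between controls and 60.3% for the difference of effects, against 50.7%, 31.6%, 58.3% and 49.4% with median-ratio scaling. Values under 1 TPM rest on few reads.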
